A study of Mus musculus with 64 samples.

Results

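The Q140 allele, in which the mouse huntingtin gene carries a knocked-in long CAG repeat, was measured in 2 brain regions of the same animals, and the results given here concern the difference between the regions. For every gene the effect of Q140 in striatum (Q140 carriers minus non-carriers, on a log2 scale) was set against the effect of Q140 in cerebral cortex. The difference, striatal effect minus cortical effect, was averaged over both Polq labels. All 64 libraries of the study entered, 1 from striatum and 1 from cortex of each of 32 mice, and 19091 of the 48795 genes in the tables passed the filter on low counts. The carriers were 8 mice heterozygous for the Q140 knock-in and also Polq+/-, and 8 mice heterozygous for the knock-in with both Polq copies. The non-carriers were 8 Polq+/- mice and 8 wild-type mice. Every genotype held 4 females and 4 males of C57BL/6, all 6 months old. Each replicate was therefore a separate animal, and every allele was constitutive, present in all cells of both regions. Polq codes for DNA polymerase theta, an enzyme of end joining at DNA breaks. Its labels were averaged over, and the tissue difference is also given within each of them.

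Expanded huntingtin causes Huntington's disease, in which the striatum degenerates before most of the cortex. Most striatal neurons are spiny projection neurons, GABA-releasing cells that receive glutamate from cortex and dopamine from midbrain. Dopamine acts in them through cAMP. Direct pathway cells carry the D1 receptor, indirect pathway cells the D2 receptor, enkephalin and an adenosine receptor. Cortical projection neurons release glutamate and carry huntingtin too, so the same allele is read in each region against a different set of active genes. In bulk tissue, fewer cells of a type and less RNA per cell cannot be told apart.

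Gene counts summed to 28.7 to 40.6 M per library in striatum and 30.9 to 40.1 M in cortex (M, counts in units of 1e6). CPM are gene counts per 1e6 of the library, TMM-scaled for single genes and not scaled for sums of markers. The 7 striatal markers fixed for this check summed to 4931 to 5566 CPM in striatum of carriers and 7596 to 8866 CPM in striatum of non-carriers. In cortex the same markers summed to 176 to 209 CPM in carriers and 176 to 200 CPM in non-carriers, and none of them was at 0. The 5 cortical markers summed to 3.52 to 6.60 CPM in striatum of carriers and 2.62 to 24.1 CPM in striatum of non-carriers, against 1533 to 1803 CPM in cortex of carriers and 1569 to 1791 CPM in cortex of non-carriers. The striatal library of Polq+/- female 3 stood apart by choroid plexus markers (1357 CPM), and that of wild-type male 2 by cerebellar granule cell markers (178 CPM) and cortical markers. Smaller excesses over the other mice of the genotype were seen in Q140 female 2 (choroid plexus, 46.7 CPM) and Polq+/- male 2 (cortical, 8.45 CPM). Choroid plexus markers were higher still in other carriers, whose striatal libraries reached 66.0 CPM, with a second highest of 49.8 CPM. Without Polq+/- female 3 and wild-type males 2 and 3, the count of genes called was 6335, against 6119 with all mice.

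Both targeted genes were examined first. Polq (ENSMUSG00000034206, GRCm38 chromosome 16, 37011786 to 37095417, plus strand) averaged 1.33 ± 0.923 CPM in striatum of Q140 Polq+/- mice and 3.04 ± 0.402 CPM in striatum of Q140 mice, with 1.64 ± 0.636 CPM in Polq+/- and 3.09 ± 0.502 CPM in wild-type striatum (SD, n = 8 each). The label therefore followed the level, although 4 mice labelled Polq+/- had much lower Polq than the rest, and 5423 genes were called without those 4. For Polq the tissue difference of the Q140 effect was -0.08 ± 0.14 (log2, SE; adjusted p = 0.718). Htt (ENSMUSG00000029104, chromosome 5, 34761740 to 34912534, plus strand) lay at 182, 196 and 203 CPM (lowest, median, highest of 16) in carrier striatum and 135, 212 and 228 CPM in non-carrier striatum. In cortex Htt lay at 197, 221 and 246 CPM in carriers and 227, 234 and 254 CPM in non-carriers. Its level fell slightly with Q140 in cortex (log2 -0.10 ± 0.02, adjusted p = 0.0127) and did not pass in striatum (-0.08 ± 0.04, adjusted p = 0.102), and the tissue difference was 0.02 ± 0.04 (adjusted p = 0.755). The lowest striatal value, 135 CPM, was 1 library, wild-type male 3, and the other non-carrier striata lay at 197 to 228 CPM. The striatal effect was not fitted without that library, so its failure to pass does not set striatum apart from cortex.

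The Q140 effect differed between striatum and cortex for 6119 of 19091 genes, 32.1% at adjusted p under 0.05. It was higher in striatum for 3006 genes (15.7%) and lower in striatum for 3113 (16.3%). A difference over 1 on the log2 scale was called for 64 genes higher and 106 lower. The balance of small differences depended on the method. With limma on log2 FPKM, which differs from the reported fit in test and transform and has no TMM scaling, 5295 genes were called higher and 2061 lower at a pseudocount of 0.1 (72.0% higher, against 49.1% on counts), and the median over all genes was 0.05, against -0.0035 as reported. DESeq2 size factors in edgeR gave 3029 higher and 3081 lower. TMM factors ran from 0.974 to 1.06 in striatum and 0.971 to 0.999 in cortex.

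Taken tissue by tissue, carriers differed from non-carriers at 8237 genes in striatum (43.1%, 4438 higher, 23.2%, and 3799 lower, 19.9%) and at 418 genes in cortex (2.19%, 145 higher, 0.76%, and 273 lower, 1.43%). Of the 6119 genes whose effect differed between regions, 5371 (87.8%) were called in striatum and not in cortex. Another 139 (2.27%) were called the same way in both, and at 135 of those the striatal effect was the larger. Another 36 (0.588%) were called in opposite directions, 51 (0.833%) in cortex and not in striatum, and 522 (8.53%) in neither region alone. Over all 19091 genes, the median size of the effect was 0.110 in striatum and 0.0393 in cortex.

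**Figure D1:**
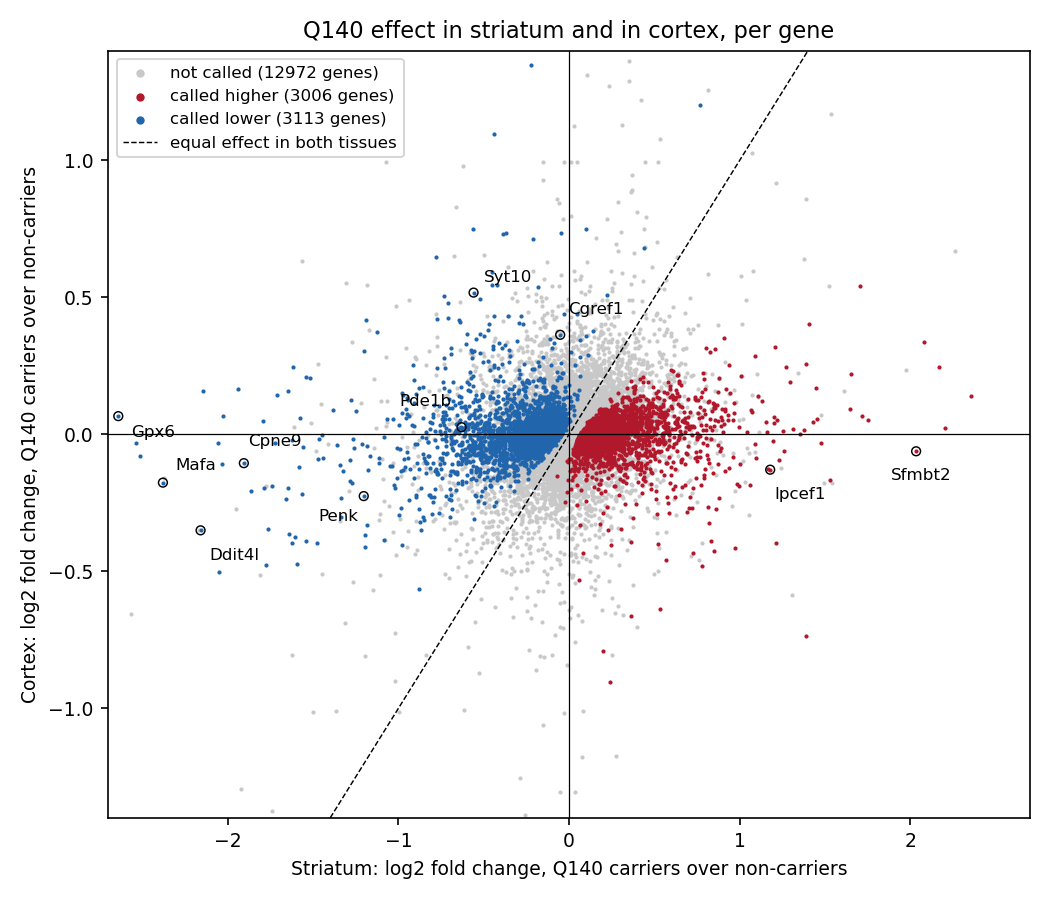
Each point is 1 of 19091 genes, with the log2 effect of Q140 in striatum on the horizontal axis and in cortex on the vertical axis; red and blue points were called higher or lower in striatum than in cortex, and 23 genes lie outside the axes. The cloud is wide along the striatal axis and narrow along the cortical one, and named genes such as Ipcef1 and Syt10 lie in the quadrants of opposite signs.

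Genes with the smallest p-values were low in striatum of carriers and level in cortex. Ankrd35 (ENSMUSG00000038354), an ankyrin repeat gene, lay at 5.42, 6.96 and 8.21 CPM in carrier striatum and 15.1, 18.8 and 20.8 CPM in non-carrier striatum. Its cortical levels were 15.0, 16.5 and 18.1 CPM in carriers and 14.6, 16.5 and 18.8 CPM in non-carriers. The striatal groups did not overlap while the cortical groups covered the same range, and the tissue difference was -1.45 ± 0.05 (adjusted p = 1.14e-24). Pde1b (ENSMUSG00000022489), a calcium-activated phosphodiesterase that breaks down cAMP and cGMP, lay at 1113, 1213 and 1265 CPM in carrier striatum and 1711, 1879 and 2038 CPM in non-carrier striatum. In cortex Pde1b lay at 141, 144 and 156 CPM in carriers and 132, 141 and 164 CPM in non-carriers, for a tissue difference of -0.67 ± 0.025 (adjusted p = 1.07e-23). Rps6ka4, a kinase of the nuclear response to MAP kinase signals, had a tissue difference of -0.79 ± 0.030 (adjusted p = 1.07e-23), with striatal medians of 46.9 CPM in carriers and 78.9 CPM in non-carriers. At each of these genes 16 of 16 carriers lay below the non-carrier median of the striatum minus cortex difference within a mouse. At least 14 of 16 were required for a gene to be named here, so this count is no separate support.

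Among the strongest negative differences, Ddit4l (ENSMUSG00000046818), which restrains mTOR signalling, fell in both regions. It lay at 7.33, 8.89 and 10.2 CPM in carrier striatum and 33.6, 39.6 and 47.4 CPM in non-carrier striatum. Cortical levels were 35.0, 37.0 and 46.8 CPM in carriers and 36.0, 48.2 and 64.6 CPM in non-carriers. The effect was -2.16 ± 0.05 in striatum and -0.35 ± 0.07 in cortex (adjusted p = 0.00333), and the difference between them -1.83 ± 0.10 (adjusted p = 4.48e-15). Mafa, a transcription factor best known from pancreatic beta cells, lay at 0.301, 0.641 and 1.06 CPM in carrier striatum and 2.61, 3.33 and 4.58 CPM in non-carrier striatum, with a tissue difference of -2.23 ± 0.17 (adjusted p = 6.05e-14). Gpx6, a glutathione peroxidase, summed to 1073 counts in carrier striatum and 7058 counts in non-carrier striatum, but to 10 and 8 counts in cortex of carriers and non-carriers. Its tissue difference (-2.72 ± 1.05, adjusted p = 0.0428) therefore rests on almost no cortical reads, and it was called in Polq+/- mice (adjusted p = 0.00418) and not in mice with both copies (adjusted p = 0.595). The call was lost in 9 of 23 other settings, with adjusted p up to 0.873 (without female replicate 4 of every genotype).

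**Figure D2:**
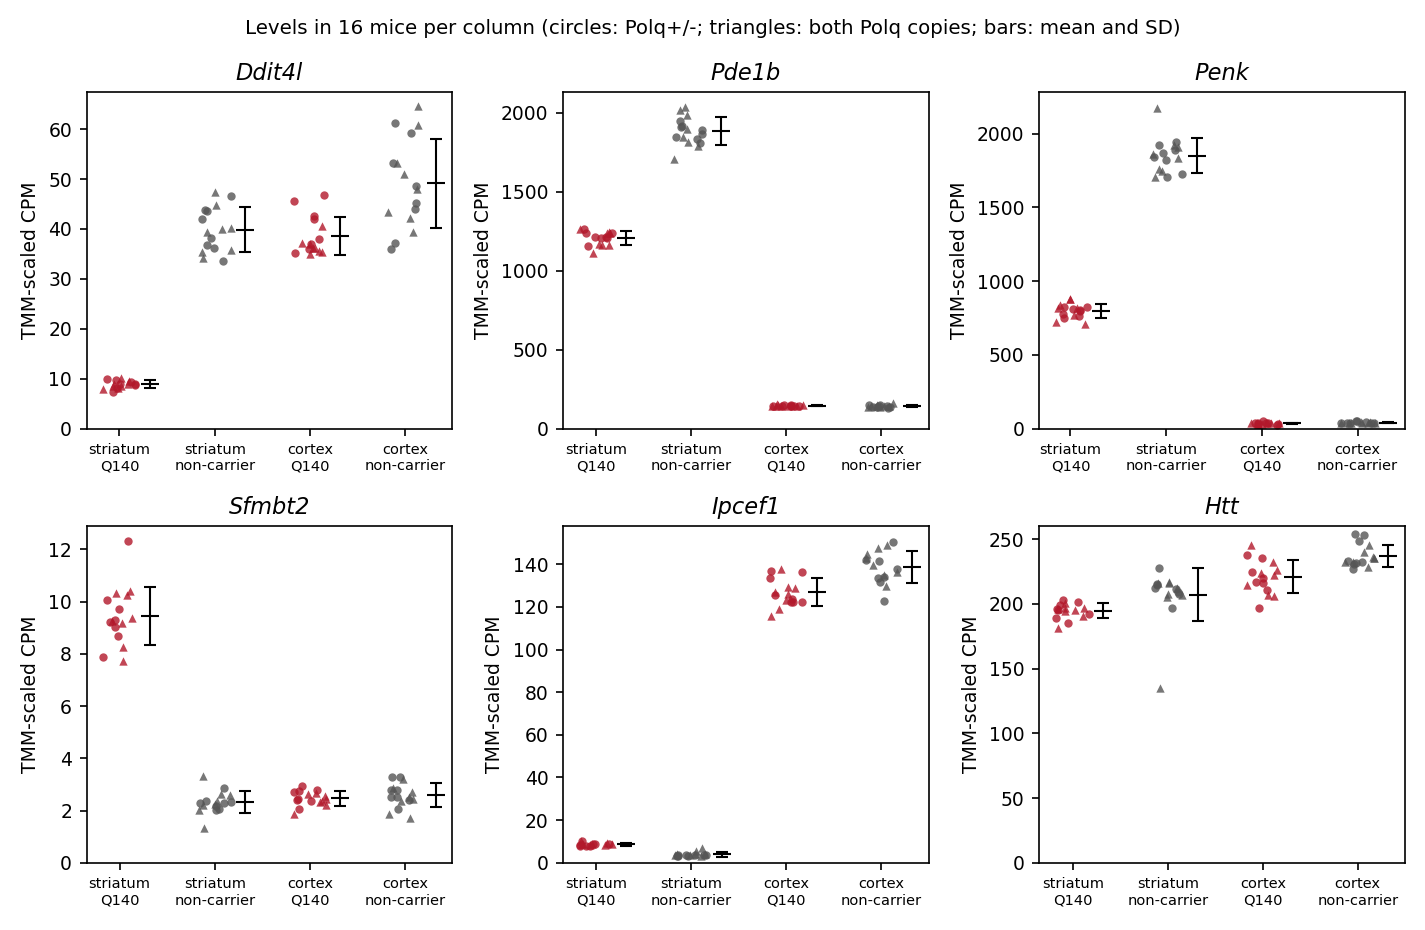
TMM-scaled CPM of 6 genes in every library, with 16 mice per column, circles for Polq+/- mice, triangles for mice with both Polq copies, and bars for the mean and SD. Ddit4l, Pde1b and Penk are low and Sfmbt2 and Ipcef1 high in striatum of Q140 carriers, whereas Htt shows 1 low striatal library at 135 CPM among the non-carriers.

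In the other direction, Sfmbt2 (ENSMUSG00000061186), a Polycomb-related protein that binds methylated histones, had the largest positive difference under the naming rule, 2.09 ± 0.09 (adjusted p = 1.12e-21). It lay at 7.74, 9.28 and 12.3 CPM in carrier striatum and 1.34, 2.29 and 3.34 CPM in non-carrier striatum. Its cortical levels were 1.85, 2.43 and 2.92 CPM in carriers and 1.73, 2.53 and 3.30 CPM in non-carriers. Every carrier striatum thus stood above every other library of the study for this gene. Cbx8, a chromobox subunit of Polycomb repressive complex 1, differed by 0.67 ± 0.05 (adjusted p = 3.12e-13). Neither gene stood for the whole group: of 33 Polycomb group genes tested, 7 were called higher and 9 lower (15.7% and 16.3% over all genes), with a median of 0.02. On log2 FPKM 15 of them were higher and 4 lower.

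Syp, Stmn2 and Gng3 were also among the 5 smallest p-values with a positive difference. Syp, the synaptic vesicle protein synaptophysin, lay at 627, 664 and 701 CPM in carrier striatum and 421, 454 and 514 CPM in non-carrier striatum. In cortex it lay at 1281, 1329 and 1384 CPM in carriers and 1290, 1333 and 1393 CPM in non-carriers, for a difference of 0.55 ± 0.02 (adjusted p = 1.18e-21). Stmn2, a microtubule regulator of growing axons, differed by 0.76 ± 0.04 (adjusted p = 1.64e-19). Gng3 (ENSMUSG00000071658), a neuronal G protein gamma subunit, lay at 104, 111 and 121 CPM in carrier striatum and 62.6, 70.7 and 86.6 CPM in non-carrier striatum, and differed by 0.57 ± 0.03 (adjusted p = 2.21e-19). All 3 are more abundant in cortex than in striatum, and the carriers' striatal values, although raised, lay below every cortical library.

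Sequence just before the start of a gene is shown for 2 genes of each direction, those of smallest p whose RefSeq window of 250 bases (GRCm38.p6) holds no base of the annotated gene. CpG pairs are in capitals, since CpG content separates broadly used promoters from restricted ones; each line runs 5′ to 3′ on the strand of its gene. The windows are chr3:96669881-96670130 (plus strand), chr15:103502784-103503033 (plus), chr2:10370201-10370450 (plus) and chr19:8839247-8839496 (minus).
Ankrd35: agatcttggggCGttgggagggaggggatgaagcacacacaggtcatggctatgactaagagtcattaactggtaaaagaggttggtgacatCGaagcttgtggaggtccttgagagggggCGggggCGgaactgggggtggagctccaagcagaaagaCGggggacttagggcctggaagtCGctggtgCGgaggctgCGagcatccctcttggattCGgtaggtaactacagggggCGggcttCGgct
Pde1b: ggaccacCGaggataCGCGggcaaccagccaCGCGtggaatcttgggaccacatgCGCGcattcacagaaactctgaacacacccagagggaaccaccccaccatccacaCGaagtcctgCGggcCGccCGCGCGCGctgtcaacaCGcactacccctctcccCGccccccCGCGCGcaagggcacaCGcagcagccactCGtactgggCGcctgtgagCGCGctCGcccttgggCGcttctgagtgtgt
Sfmbt2: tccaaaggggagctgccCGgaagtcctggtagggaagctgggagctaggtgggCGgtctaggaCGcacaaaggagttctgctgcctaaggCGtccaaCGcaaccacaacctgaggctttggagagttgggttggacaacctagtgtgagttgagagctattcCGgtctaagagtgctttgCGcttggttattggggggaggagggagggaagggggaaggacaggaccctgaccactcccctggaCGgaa
Gng3: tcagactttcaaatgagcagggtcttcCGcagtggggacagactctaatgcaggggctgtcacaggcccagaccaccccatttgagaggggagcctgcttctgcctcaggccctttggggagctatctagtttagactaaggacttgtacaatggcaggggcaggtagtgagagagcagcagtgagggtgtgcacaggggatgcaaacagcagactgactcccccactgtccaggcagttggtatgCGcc
Ankrd35 has 11 CpG pairs, Pde1b 26, Sfmbt2 8 and Gng3 2. The observed over expected CpG ratio is 0.607, 0.956, 0.409 and 0.101 in the same order, against quartiles of 0.445, 0.694 and 0.871 over the 12368 tested genes with a RefSeq promoter entry. Over windows of 300 bases (250 before the start and 50 after), the median ratio was 0.531 for 303 genes lower by over 0.5 (log2), 0.608 for 187 genes higher by over 0.5, and 0.720 for genes not called.

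Letters of known response elements were counted in the same windows on both strands. The cAMP response element (TGACGTCA), bound by CREB-type factors, was present in 0.99% of promoters of genes lower by over 0.5 (3 of 303), 1.60% of those of genes higher by over 0.5 (3 of 187), 2.83% of those of all genes called lower, and 3.06% of all promoters. Among all genes called higher that element was present in 3.48%. The Egr motif, searched as GCGTGGGCG or GCGGGGGCG, was present in 3.96% of promoters of genes lower by over 0.5, 7.99% of those of all genes called lower, and 6.36% of all promoters. For genes higher by over 0.5 the Egr share was 7.49%, and for all genes called higher 6.87%. The E-box CACGTG, bound by clock factors among others, was present in 10.1% of promoters of genes called lower, 10.9% of those of genes called higher, and 9.55% of all promoters. For genes lower by over 0.5 the share was 9.57%. These shares describe letters in a short window and were not tested.

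Shared markers of spiny neurons moved together. Of 31 shared markers of both spiny classes tested, 29 were called lower in striatum than in cortex and 0 higher, beside 16.3% lower over all genes, with a median effect of -0.52 in striatum and -0.03 in cortex. Arpp21, a cAMP-regulated phosphoprotein, lay at 984, 1097 and 1173 CPM in carrier striatum and 1704, 1936 and 2278 CPM in non-carrier striatum. It also fell in cortex, by 0.14 ± 0.02 on the log2 scale (adjusted p = 2.71e-05), and the tissue difference was -0.71 ± 0.03 (adjusted p = 1.64e-19). Arpp19 and Ppp1r16b, a phosphatase inhibitor and a phosphatase regulatory subunit, had tissue differences of -0.66 ± 0.03 (adjusted p = 7.01e-20) and -0.59 ± 0.03 (adjusted p = 1.26e-19).

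Dopamine to cAMP signalling followed, with 23 of 24 tested genes called lower and 0 higher (median -0.53), beside 16.3% lower over all genes. Lists share members, such as Rgs14 with the RGS genes, so counts of different lists are not separate evidence. Receptors came first: Drd1 lay at 216, 242 and 251 CPM in carrier striatum and 320, 374 and 392 CPM in non-carrier striatum, with a tissue difference of -0.73 ± 0.05 (adjusted p = 6.40e-14). Its cortical medians were 5.62 CPM in carriers and 5.14 CPM in non-carriers. The enzyme that makes cAMP in these cells, Adcy5, lay at 1203, 1330 and 1429 CPM in carrier striatum and 1725, 2152 and 2249 CPM in non-carrier striatum. Its cortical medians were 129 CPM in carriers and 131 CPM in non-carriers, for a tissue difference of -0.64 ± 0.03 (adjusted p = 3.83e-19). Rgs14, a regulator that speeds the shut-off of G proteins, had striatal medians of 52.6 CPM in carriers and 107 CPM in non-carriers, and a tissue difference of -1.10 ± 0.05 (adjusted p = 1.06e-17). Of 17 RGS genes, 11 were lower and 1 higher (median -0.27). The exception was Rgs19, at 10.4, 12.6 and 13.9 CPM in carrier striatum and 5.96, 7.39 and 9.06 CPM in non-carrier striatum, with a difference of 0.82 ± 0.05 (adjusted p = 1.60e-16).

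Called markers of the indirect pathway were all lower, whereas those of the direct pathway went both ways. Of 6 indirect pathway markers, 4 were lower and 0 higher (median -0.63), beside 16.3% lower and 15.7% higher over all genes. Penk, the enkephalin precursor, lay at 708, 807 and 882 CPM in carrier striatum and 1704, 1851 and 2176 CPM in non-carrier striatum, and at 25.2, 35.0 and 48.0 CPM in carrier cortex and 34.4, 39.4 and 48.6 CPM in non-carrier cortex. Its tissue difference was -0.98 ± 0.08 (adjusted p = 7.76e-11). Adora2a, the adenosine receptor of these cells, differed by -0.88 ± 0.10 (adjusted p = 1.42e-08) and Drd2 by -0.52 ± 0.12 (adjusted p = 0.000414). Of 10 direct pathway markers, 3 were lower and 2 higher (median 0.02), and within striatum 5 were called higher and 5 lower. The 2 with a higher difference are not named here. Drd1 and Chrm4, the M4 muscarinic receptor (-0.61 ± 0.08, adjusted p = 2.44e-07), were among the lower ones, while Pdyn, the dynorphin precursor, did not pass (-0.15 ± 0.07, adjusted p = 0.109). Whether the indirect markers differed from the direct ones was not tested. Of 27 striatal G protein-coupled receptors, 17 were lower and 3 higher (median -0.33), and of 17 phosphodiesterases 6 were lower and 2 higher. On log2 FPKM with a pseudocount of 1, 5 direct pathway markers and 6 of the receptors were called higher.

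Transcription factors of spiny neurons gave 9 of 24 lower and 1 higher, or 8 higher on log2 FPKM with a pseudocount of 1. Their median difference was 0.004, and within striatum 9 were called higher and 9 lower, so they had no common direction. Foxo1 differed by -0.54 ± 0.05 (adjusted p = 5.95e-11) and Foxp1, which helps set spiny neuron identity, by -0.30 ± 0.03 (adjusted p = 1.70e-10). Of 28 cortical excitatory neuron markers, 5 were called higher (9 on log2 FPKM with a pseudocount of 0.1) and 4 lower, shares close to the 15.7% and 16.3% over all genes.

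Immediate early genes, which neurons switch on within minutes of activity, were lower in striatum for 18 of 28 tested and higher for 1 (median -0.41). Over all genes the shares were 16.3% lower and 15.7% higher. Homer1, a scaffold of glutamate receptors with an activity-induced short form, lay at 156, 193 and 217 CPM in carrier striatum and 306, 347 and 409 CPM in non-carrier striatum. It fell in cortex too, with 178, 259 and 316 CPM in carriers and 259, 320 and 420 CPM in non-carriers (-0.31 ± 0.07, adjusted p = 0.00744), and the tissue difference was -0.54 ± 0.04 (adjusted p = 8.41e-12). Egr1, a zinc finger factor and marker of neuronal activity, varied widely between mice: 228, 350 and 438 CPM in carrier striatum against 269, 579 and 789 CPM in non-carrier striatum, and 367, 611 and 858 CPM in carrier cortex against 322, 738 and 850 CPM in non-carrier cortex. Both striatal ranges overlapped, yet the difference between the regions of a mouse was steadier. It lay at -1.15, -0.86 and -0.53 (log2 CPM) in carriers and -0.69, -0.24 and 0.03 in non-carriers, for a tissue difference of -0.62 ± 0.06 (adjusted p = 1.00e-09). Egr4 differed by -0.75 ± 0.09 (adjusted p = 1.11e-07), and 16 of 16 carriers lay below the non-carrier median for either gene. Without the mouse as a block, 10 immediate early genes were called lower.

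Circadian clock genes were lower in striatum for 14 of 17 tested and higher for 0, beside 16.3% lower and 15.7% higher over all genes. Their median difference was -0.27, with -0.31 in striatum and -0.01 in cortex. Npas2, the forebrain partner of Bmal1, lay at 49.5, 58.9 and 67.4 CPM in carrier striatum and 78.6, 87.1 and 105 CPM in non-carrier striatum. In cortex it lay at 43.9, 46.4 and 57.4 CPM in carriers and 42.5, 50.6 and 57.0 CPM in non-carriers, for a difference of -0.53 ± 0.04 (adjusted p = 1.28e-15). Dbp, a clock output factor, lay at 161, 178 and 191 CPM in carrier striatum and 210, 247 and 298 CPM in non-carrier striatum, and at 108, 125 and 136 CPM in carrier cortex and 95.4, 125 and 155 CPM in non-carrier cortex. Its difference was -0.50 ± 0.03 (adjusted p = 1.83e-15). Time of dissection is not given in the labels used here, and both regions came from the same animal. Per1, which belongs to the clock and the immediate early list, differed by -0.60 ± 0.07 (adjusted p = 1.12e-07).

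Ion channels and receptors moved both ways. Of 59 potassium channel genes, 16 were lower and 9 higher, and of 29 sodium and calcium channel genes 13 were lower and 7 higher, beside 16.3% lower and 15.7% higher over all genes. Scn4b, the beta subunit that shapes fast sodium current in spiny neurons, lay at 971, 1128 and 1239 CPM in carrier striatum and 2091, 2429 and 2906 CPM in non-carrier striatum. Cortical levels were 165, 196 and 216 CPM in carriers and 169, 204 and 234 CPM in non-carriers, for a difference of -1.04 ± 0.05 (adjusted p = 4.15e-16). Kcnh4, a voltage-gated potassium channel, lay at 47.9, 53.2 and 58.0 CPM in carrier striatum and 82.9, 106 and 117 CPM in non-carrier striatum, and differed by -0.90 ± 0.05 (adjusted p = 8.72e-16). Cacna2d1, a calcium channel subunit, went the other way, with 0.32 ± 0.02 (adjusted p = 4.24e-15). Of 40 glutamate and GABA receptor subunits, 16 were lower, among them Grik2 of the kainate receptor (-0.54 ± 0.03, adjusted p = 1.04e-17) and Grm5 (-0.33 ± 0.03, adjusted p = 3.51e-13), and 8 were higher. Of 14 CaM kinases and inhibitors, 7 were lower and 0 higher, led by Camkv (-0.47 ± 0.03, adjusted p = 5.92e-18). On log2 FPKM with a pseudocount of 0.1, 14 potassium channel, 13 sodium and calcium channel and 13 receptor subunit genes were called higher, and without female replicate 1 or 3 of every genotype 4 sodium and calcium channel genes were.

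Clustered protocadherins, surface proteins that give each neuron a combination of labels, formed the group with the most positive differences among those listed. Of 52 tested, 33 were called higher and 6 lower, beside 15.7% higher over all genes, with a median effect of 0.36 in striatum and 0.02 in cortex. Pcdhb19 lay at 21.5, 25.7 and 28.03 CPM in carrier striatum and 10.1, 15.3 and 16.8 CPM in non-carrier striatum, with cortical medians of 12.6 CPM in carriers and 12.97 CPM in non-carriers. Its tissue difference was 0.76 ± 0.05 (adjusted p = 8.67e-17). Pcdhb3 differed by 0.88 ± 0.07 (adjusted p = 2.84e-14), with 5.62, 7.03 and 8.96 CPM in carrier striatum and 2.67, 3.86 and 4.39 CPM in non-carrier striatum. Members of the clusters resemble each other, so the division of reads between single members is uncertain. Called lower were 3 on log2 FPKM, and also 3 without male replicate 4 of every genotype.

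Synaptic organisers were higher for 12 of 32 and lower for 6, and synaptic vesicle release genes were higher for 14 of 40 and lower for 8. The shares over all genes were 15.7% higher and 16.3% lower. Lrfn2, a postsynaptic adhesion protein, lay at 4.42, 5.35 and 6.73 CPM in carrier striatum and 2.68, 3.45 and 4.85 CPM in non-carrier striatum (0.62 ± 0.10, adjusted p = 3.77e-06). Lrrtm1, another postsynaptic adhesion protein, had the opposite sign (-0.42 ± 0.03, adjusted p = 5.60e-16), so the list had no common direction. Unc13b, which primes vesicles for release, differed by 0.44 ± 0.03 (adjusted p = 3.75e-14). On log2 FPKM with a pseudocount of 0.1, vesicle release genes numbered 22 higher and 5 lower, and synaptic organisers 3 lower. Without female replicate 2 of every genotype, 5 vesicle release genes were lower.

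Developmental transcription factors were mostly silent, and 13 of 32 listed passed the filter. Of these, 4 were called higher and 0 lower, but Onecut1 passed the filter only through carriers, so the count says little of the list. Wt1, a factor of kidney and gonad development, summed to 1017 counts in carrier striatum and 28 counts in non-carrier striatum, against 200 and 226 counts in cortex of carriers and non-carriers. Onecut1 summed to 316 counts in carrier striatum and 23 counts in non-carrier striatum, against 25 and 42 counts in cortex of carriers and non-carriers. Sox11, a factor of immature neurons, was well measured: 21.3, 30.2 and 35.8 CPM in carrier striatum and 13.3, 15.9 and 20.2 CPM in non-carrier striatum, for a difference of 0.70 ± 0.09 (adjusted p = 1.25e-07).

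Genes that modify the growth of CAG repeats through mismatch repair were higher for 6 of 19 and lower for 0, beside 15.7% higher and 16.3% lower over all genes, with small effects. Rrm2b, a ribonucleotide reductase subunit, led with 50.2, 54.4 and 58.8 CPM in carrier striatum and 41.1, 44.9 and 50.8 CPM in non-carrier striatum (0.19 ± 0.03, adjusted p = 6.95e-06). Their median effect was 0.12 in striatum and 0.06 in cortex. On log2 FPKM, 10 or 11 of them were called higher, according to the pseudocount.

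Markers of other cell types differed by small amounts. Over all genes, 15.7% were called higher and 16.3% lower. Of 17 microglial markers, 14 were called lower and 0 higher, with a median effect of -0.12 in striatum and 0.05 in cortex. P2ry12, the purine receptor of resting microglia, lay at 29.1, 33.2 and 39.5 CPM in carrier striatum and 32.9, 36.2 and 41.3 CPM in non-carrier striatum. In cortex it lay at 26.7, 29.9 and 35.4 CPM in carriers and 25.8, 27.8 and 31.2 CPM in non-carriers, so ranges overlapped in both regions (difference -0.22 ± 0.03, adjusted p = 1.34e-07). Of 13 endothelial markers, 12 were lower and 0 higher (median -0.16). The calls depended on the method. With limma on log2 FPKM, 9 microglial and 2 endothelial markers were called lower, and without the mouse block 4 endothelial markers were. In mice labelled Polq+/- 0 endothelial markers were called lower (edgeR; 5 at an unadjusted p under 0.05, median -0.11), and in mice with both copies 9 were (median -0.23). Astrocyte markers gave 1 higher and 1 lower of 15, mature oligodendrocyte and myelin genes 0 higher and 3 lower of 18 (7 lower without male replicate 1 of every genotype, and 0 lower with limma on log2 FPKM), and mural cell markers 0 higher and 6 lower of 12. Ribosomal protein genes, as a group expressed in every cell, gave 0 higher and 11 lower of 55, but 1 lower on log2 FPKM, 7 lower without female or male replicate 3 of every genotype, and 6 without the 4 mice of lowest Polq.

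Opposite effects in the 2 regions were rare, and 36 genes were called in both with different signs. Ipcef1, an adaptor of the small GTPase pathway around Arf6, lay at 7.68, 8.65 and 10.4 CPM in carrier striatum and 2.97, 3.60 and 7.05 CPM in non-carrier striatum, and at 116, 126 and 138 CPM in carrier cortex and 123, 139 and 150 CPM in non-carrier cortex. The difference was 1.30 ± 0.08 (adjusted p = 3.60e-15). Syt10, a calcium sensor of secretory vesicles, fell in striatum to a median of 9.70 CPM in carriers, against 14.7 CPM in non-carriers. It rose in cortex to a median of 1.65 CPM in carriers, against 1.11 CPM in non-carriers, and the difference was -1.08 ± 0.13 (adjusted p = 2.81e-08).

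Tmem91, a transmembrane protein gene, was the converse, at 35.0, 37.99 and 41.2 CPM in carrier striatum and 25.2, 29.1 and 33.9 CPM in non-carrier striatum. In cortex it lay at 5.84, 7.02 and 8.08 CPM in carriers and 6.80, 8.31 and 10.001 CPM in non-carriers, with a difference of 0.64 ± 0.05 (adjusted p = 9.85e-13). Gucy2g, a membrane guanylate cyclase, differed by 0.59 ± 0.15 (adjusted p = 0.00175), with striatal medians of only 0.569 CPM in carriers and 0.370 CPM in non-carriers.

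Of the 51 genes called in cortex and not in striatum, 32 had a higher and 19 a lower effect in striatum than in cortex. Cgref1, a calcium-binding growth regulator, lay at 8.92, 10.9 and 11.7 CPM in carrier cortex and 6.94, 8.35 and 9.83 CPM in non-carrier cortex, and 14 of 16 carriers stood above every non-carrier. In striatum it lay at 15.9, 19.0 and 21.2 CPM in carriers and 17.1, 20.01 and 25.01 CPM in non-carriers. The cortical effect was 0.36 ± 0.05 (adjusted p = 1.96e-06), the striatal effect -0.05 ± 0.04 (adjusted p = 0.363) and the difference -0.43 ± 0.05 (adjusted p = 9.86e-09). Cgref1 lies on chromosome 5 (30933143 to 30945591), within 5 Mb of Htt. Over the 142 tested genes within 5 Mb of Htt, 31.7% differed between regions, beside 32.1% of all genes, and 7.75% were called in cortex, beside 2.19%. Within 1 Mb, 53.1% of 32 tested genes differed between regions (8 higher, 9 lower) and 6.25% were called in cortex. The reason for these shares was not tested. Slc25a18, a mitochondrial glutamate carrier, differed by 0.59 ± 0.21 (adjusted p = 0.0352), and its striatal effect (0.51 ± 0.22, adjusted p = 0.0615) was larger in size than the cortical effect that was called (-0.09 ± 0.02, adjusted p = 0.0303). The call for Slc25a18 was lost in 8 of 23 other settings, with adjusted p up to 0.152.

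Among the 139 genes called the same way in both regions, the difference between regions was part of how they were chosen, and another 48 genes higher and 67 lower in both had no called difference. Plk5, a neuronal member of the polo-like kinases, lay at 11.2, 12.6 and 16.3 CPM in carrier striatum and 35.4, 42.2 and 44.7 CPM in non-carrier striatum. Its cortical levels were 16.9, 20.2 and 26.0 CPM in carriers and 23.5, 26.1 and 39.6 CPM in non-carriers. The effect was -1.63 ± 0.05 in striatum, -0.40 ± 0.07 in cortex (adjusted p = 0.000693), and the difference -1.24 ± 0.07 (adjusted p = 2.19e-16). Cpne9, a copine that binds membranes in response to calcium, fell to a median of 4.11 CPM in carrier striatum, against 16.4 CPM in non-carrier striatum. In cortex, where it is abundant, it had medians of 133 CPM in carriers and 142 CPM in non-carriers (-0.11 ± 0.03, adjusted p = 0.0255), and the difference was -1.80 ± 0.11 (adjusted p = 9.80e-14). Cpne9 is higher in cortex than in striatum of wild-type mice, so a negative difference was not limited to genes enriched in striatum.

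The usual balance of a gene between the regions was set beside its Q140 effect in separate animals: the balance came from wild-type mice and the effect from mice labelled Polq+/-, which share no library. Among 749 genes over 4-fold higher in striatum, 20.6% were called lower and 1.47% higher, beside 10.3% lower and 9.0% higher over all genes in these mice, and the median effect of Q140 was -0.18 in striatum and 0.00 in cortex. Among 11366 genes within 1.41-fold, 8.68% were called lower and 7.74% higher. Among 891 genes over 4-fold higher in cortex, 1.80% were lower and 12.8% higher, and the median effect was 0.10 in striatum and -0.01 in cortex. Median tissue differences followed the order of the classes, at -0.26, -0.14 and -0.09 for genes over 4-fold, 2 to 4-fold and 1.41 to 2-fold higher in striatum, and at 0.07, 0.09 and 0.10 for genes 1.41 to 2-fold, 2 to 4-fold and over 4-fold higher in cortex. With balance and effect taken from the other mice (balance from Polq+/-, effect from mice with both copies), the classes higher in striatum kept that order, with a median of -0.24 in the outermost. The classes higher in cortex did not, at 0.05, 0.06 and 0.04 for genes 1.41 to 2-fold, 2 to 4-fold and over 4-fold higher in cortex. Cortical medians of the 7 classes stayed between -0.01 and 0.02.

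**Figure D3:**
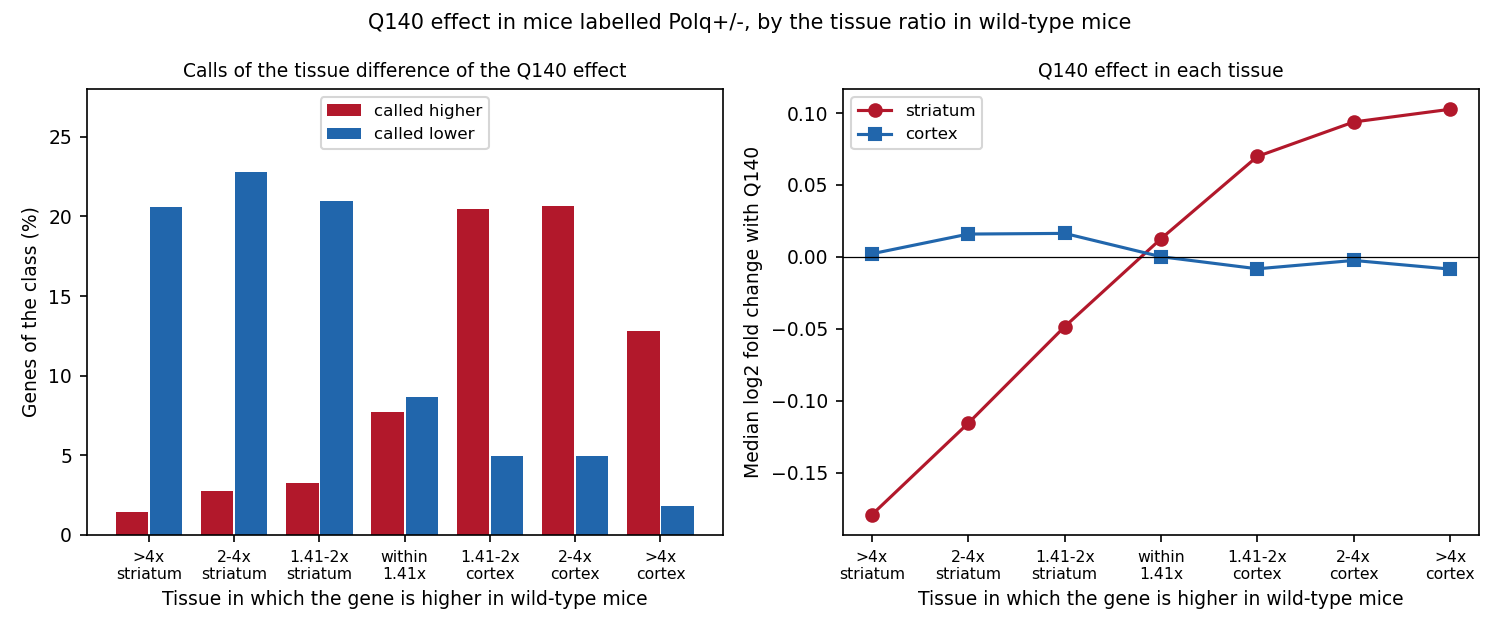
Left, the percentage of genes in each class of wild-type tissue ratio that were called higher (red) or lower (blue) in striatum than in cortex in mice labelled Polq+/-; right, the median log2 effect of Q140 in striatum (circles) and in cortex (squares) for the same classes. Genes enriched in striatum were lower, with a striatal median of -0.18 in the outermost class, genes enriched in cortex were higher there, and the cortical line stays near 0.

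Polq labels were compared last. The tissue difference was called for 3688 genes (19.3%) in mice labelled Polq+/- and 4025 genes (21.1%) in mice with both copies, which are separate animals. Of the genes called higher, 1173 were shared, 68.2% of those in Polq+/- mice and 59.8% of those in mice with both copies. Of the genes called lower, 1391 were shared, 70.6% of those in Polq+/- mice and 67.4% of those in mice with both copies, and 0 genes were called in opposite directions. At the 4025 genes called with both copies, the value in Polq+/- mice had the same sign at 97.1%, beside 73.7% over all 19091 genes. A test of the difference between the Polq labels called 0 of 19091 genes (edgeR; 951 at an unadjusted p under 0.05, smallest adjusted p 0.982). That test had a median SE of 0.112, against 0.0563 for the average over both labels. Females and males were compared in the same way: 3906 genes (20.5%) were called in females and 3844 (20.1%) in males, 1 of them in opposite directions. The test of the difference called 0 genes between the sexes (edgeR, 908 at an unadjusted p under 0.05, smallest adjusted p 0.721). Its median SE was likewise 0.112.

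**Figure D4:**
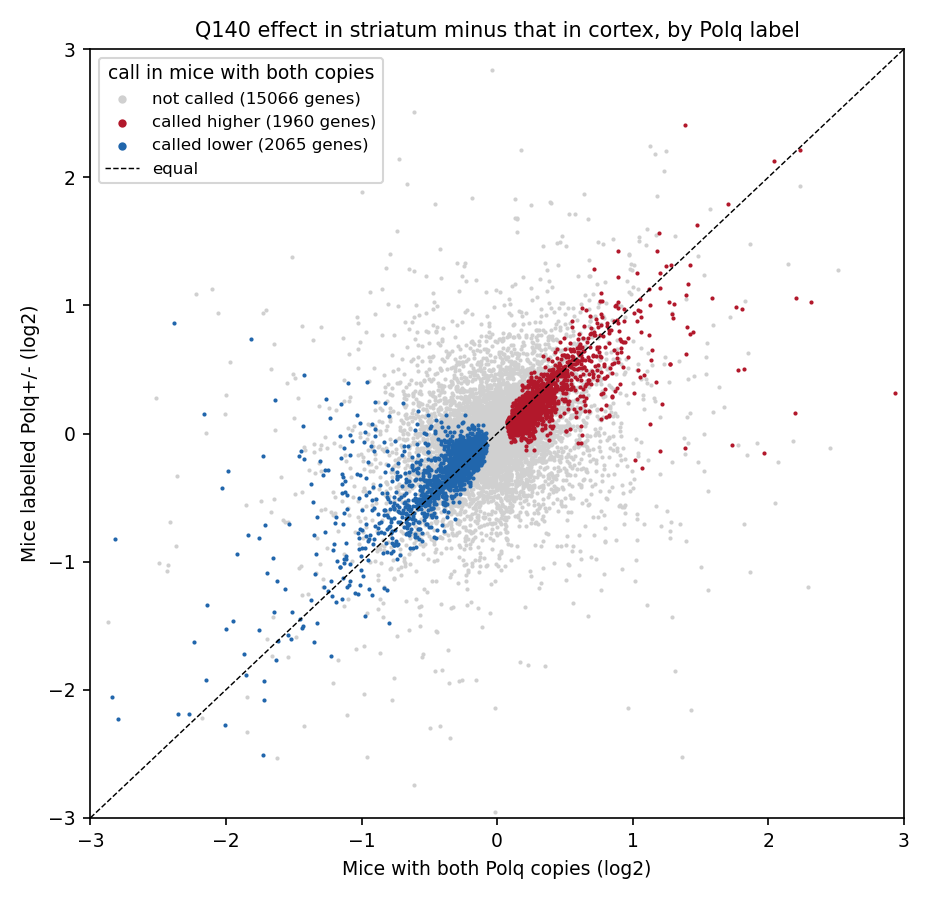
Each point is 1 gene, with the Q140 effect in striatum minus that in cortex in mice with both Polq copies on the horizontal axis and in mice labelled Polq+/- on the vertical axis (log2); colours give the call in mice with both copies, and 14 genes lie outside the axes. Of the genes called in mice with both copies, 97.1% lie on the same side of 0 in Polq+/- mice, beside 73.7% of all genes. Their size is smaller there (median 0.194 in Polq+/- mice, against 0.241 in the mice that chose them).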

How the data were processed

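Striatal and cortical total RNA of 32 mice, extracted with Qiagen RNeasy, was made into 64 libraries with a TruSeq stranded kit, per the labels' protocols. Reads were processed with STAR 2.7.5c, SAMtools 1.10 and HTSeq 0.12.3 on GRCm38 (mm10), per the submitters' processing notes. Whether reads were counted by strand is not given in the sources. Deposited by the authors were raw counts per gene and FPKM for 48795 genes. The deposited FPKM values equalled the counts divided by length and by library total, checked over 15456 genes, and 0 columns belonged to no sample. Gene positions came from GENCODE M21, which held 48349 of the gene IDs, and 27 names turned into dates were repaired.

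The test was edgeR 4.0.16, run in R 4.3.3 (quasi-likelihood, robust estimation, TMM scaling, default low-count filter by genotype and tissue). The model had a term for each of the 32 mice and a striatum minus cortex term for each of 4 genotypes. The contrast was the mean striatum term of the Q140 genotypes minus that of the non-carrier genotypes. The mouse pairs the libraries because the labels give both tissues of an animal the same mouse name. Anything constant within a mouse, such as sex, is absorbed by that term. Effects within a tissue were fitted on its 32 libraries with genotype and sex. Benjamini-Hochberg adjustment ran over 19091 genes, and an adjusted p under 0.05 was called. Standard errors were derived from the test statistic. CPM of single genes are TMM-scaled, marker sums are not, and intervals between mice cover these animals only. The fit was tested on simulated data.

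Named genes were Polq and Htt. The others came from genes called, with an assigned name, a mean of at least 1 CPM and at least 14 of 16 carriers beyond the non-carrier median of the within-mouse difference. Of these the rule took the 10 largest differences and the 5 smallest p-values in each direction, and the 5 largest that were opposite, in cortex and not striatum, or the same way in both. It also took up to 4 members of each of 45 gene lists. Not all of them are reported here. Members and lists were chosen with earlier results of these data known, so lists are described by counts and medians without a set test. Promoters came from RefSeq (GRCm38.p6), matched by symbol. Alternatives were DESeq2 1.42.0, limma 3.58.1 (voom, and log2 FPKM with a pseudocount of 0.1 or 1), DESeq2 size factors, no low-count filter, no mouse block, other covariates and thresholds, and mice left out. The plate column was added after seeing the data.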

Additional observations from a re-analysis of the deposited data

Results flagged for a closer look

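The Q140 effect differed between striatum and cortex at 6119 genes by the test of the difference, and 36 genes were called in opposite directions. Among these, the tissue difference was log2 1.30 for Ipcef1, -1.08 for Syt10, 0.64 for Tmem91 and 0.59 for Gucy2g. Their levels are given with the comparisons.

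Single mice stood apart from the other 7 of their genotype in the striatum minus cortex log2 CPM difference of 7 genes. For Htt, wild-type male 3 had -0.76. For Gpx6 and Phex, Q140 female 4 had 4.23 and 1.17. For Mafa and Sec14l3, Polq+/- female 4 had 2.53 and 4.22. In wild-type mice, male 1 had -2.11 for Tnnt2 and male 2 had -2.36 for Vwa5b2. These were 7 of 84 groups examined over 21 genes, and chance marks about 1 group in 20.

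Marker sums of other tissues set single libraries apart in 7 of 32 groups. Choroid plexus markers summed to 1357 CPM in striatum of Polq+/- female 3, to 46.7 CPM in striatum of Q140 female 2 and to 9.60 CPM in cortex of Q140 Polq+/- male 3. Cerebellar granule cell markers summed to 178 CPM in striatum of wild-type male 2. In cortex of Polq+/- male 2 they stood apart as low, at 1.84 CPM, with the nearest library of its group at 2.87 CPM. Cortical markers summed to 8.45 CPM in striatum of Polq+/- male 2 and to 24.1 CPM in striatum of wild-type male 2. Without 3 mice whose striatal library stood apart (Polq+/- female 3, wild-type male 3 and male 2), 3110 genes were called higher and 3225 lower.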

How the results depend on the processing

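Over 23 settings, 5420 to 7485 genes were called, against 6119 as reported. Direction counts moved past 1.5 times only on log2 FPKM, with 5295 higher and 2061 lower at a pseudocount of 0.1, and 5362 higher at 1. The 2123 lower at a pseudocount of 1 stayed just within 1.5 times. Of the genes called at 0.1 and at 1, 72.0% and 71.6% were higher, against 49.1% as reported. Of the genes called as reported, 0 took the other sign under any setting except log2 FPKM (12 and 18 genes). Without the mouse as a pairing block 5458 genes were called (2712 higher, 2746 lower). With each replicate number of each sex left out in turn (4 mice each), 5448 to 6041 were called, 2652 to 2942 higher and 2765 to 3099 lower. DESeq2 called 5790 (371 adjusted p not given), limma voom 6171, and terms for the plate column, added after seeing the data, left 5420. Of 66 genes named, 63 were called and 61 of these kept the call under every setting that gave them an adjusted p (23, or 22 for Onecut1, to which DESeq2 gave none). The exceptions were Gpx6 (adjusted p up to 0.873, without female replicate 4) and Slc25a18 (up to 0.152, without female replicate 2). The cause was not tested. Sizes of some called differences moved more than the calls did, from 0.739 to 2.14 for Sfmbt2 and from -1.84 to -0.850 for Cpne9 over the 23 settings. Others moved little, such as Pde1b, from -0.681 to -0.608. Differences that were not called changed sign for Htt, to -0.0154 without wild-type male 3 and -0.0130 without 3 mice (-0.0112 to 0.0329 over the replicate numbers left out), and for Polq, to 0.000179 on log2 FPKM with a pseudocount of 1 (-0.138 to 0.0304 over the replicate numbers). Depth limited cortical values of genes near 0 counts there, such as Gpx6.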

Other observations

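Muscle and desmosome genes held 1 of the larger negative differences. Ryr1, the calcium release channel known from skeletal muscle, lay at 42.4, 56.9 and 66.9 CPM (lowest, median, highest of 16) in carrier striatum and 113, 178 and 202 CPM in non-carrier striatum. Its cortical medians were 32.1 CPM in carriers and 33.0 CPM in non-carriers, and the tissue difference was -1.61 ± 0.09 (log2, SE; edgeR adjusted p = 1.72e-14). Of 21 such genes tested, 6 were lower and 4 higher. Ryr1 is also on the list of shared spiny neuron markers. Axon guidance genes were higher for 11 of 45 and lower for 9, beside 15.7% higher and 16.3% lower over all genes, with 7 higher without female replicate 3, or without male replicate 4, of every genotype. Efnb3, a transmembrane ephrin, was lower (-0.40 ± 0.04, adjusted p = 6.74e-10), with striatal values of 142, 160.0 and 176 CPM in carriers and 189, 197 and 227 CPM in non-carriers.

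Double-strand break repair genes were higher for 5 of 24 and lower for 2, beside 15.7% higher and 16.3% lower over all genes. On log2 FPKM 10 of them were higher. Prkdc, the catalytic subunit of DNA-dependent protein kinase, lay at 68.8, 72.2 and 78.4 CPM in carrier striatum and 41.9, 58.5 and 61.0 CPM in non-carrier striatum, without overlap (0.27 ± 0.03, adjusted p = 1.14e-08). Nuclear genes of the respiratory chain went both ways, 9 of 52 higher and 8 lower. Ndufs3 of complex I was lower (-0.27 ± 0.03, adjusted p = 1.29e-10) and Atp5g1 of ATP synthase higher (0.32 ± 0.03, adjusted p = 1.49e-10). The respiratory chain count was unstable: 23 higher and 2 lower on log2 FPKM, 4 higher without male replicate 1 of every genotype, 14 without male replicate 3 of every genotype or without wild-type male 3 alone, and 5 with terms for the plate column.

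Over all genes 32.1% were called. Of the other lists, chaperones had 6 higher and 6 lower of 27 (44.4% called), p53 targets 4 and 5 of 21 (42.9%), cholesterol synthesis genes 3 and 3 of 24 (9 higher on log2 FPKM), neuropeptide precursors 1 and 2 of 15, cortical interneuron markers 1 and 2 of 18, oligodendrocyte precursor markers 2 and 2 of 14, interferon response genes 1 and 2 of 18, mitochondrially encoded respiratory genes 1 and 2 of 13, copines 0 and 2 of 9, thalamic markers 1 and 1 of 13, cholinergic markers 1 and 0 of 8 and blood markers 0 and 1 of 5. Choroid plexus markers had 0 calls of 12 with edgeR (0 at an unadjusted p under 0.05) and 0 with DESeq2 or limma voom. Cerebellar granule cell markers had 0 calls of 7 with edgeR (2 at an unadjusted p under 0.05), 0 with DESeq2 and 3 lower with limma voom. Their median differences, -0.58 and -0.95 on the log2 scale, were -0.05 and -0.09 without the 3 mice whose striatal library stood apart, all non-carriers, and 1 choroid plexus marker was then called higher and 1 cerebellar marker lower.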
